A study of Mus musculus with 4 samples.

Results

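The 9 genes described here encode enzymes that make or use glutamine and glutamate: Gls2, Glul, Glud1, Got1, Got2, Gpt2, Asns, Gfpt1 and Oat. They were chosen by name, as the rows of the deposited expression table that carry these symbols, and all 9 were found among its 26334 rows. All 9 also reached 1 FPKM (fragments counted per unit of transcript length and of library size) in at least 2 libraries, the condition that left 11882 rows for testing.

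RNA was measured by bulk sequencing of polyadenylated RNA from mouse T helper 1 (Th1) cells, the branch of CD4+ T cells that secretes interferon-gamma. Cultures given interleukin-16 (IL-16), a cytokine, are represented by 2 libraries. Cultures given phosphate-buffered saline (PBS) instead are also represented by 2 libraries. Both groups started from naive splenic CD4+ T cells and shared the same Th1-polarising culture of 5 days, and the comparison asks which transcripts IL-16 alters in that culture. No mouse strain, age, genotype or IL-16 dose is stated by the labels. Nor do they say whether replicates were separate mice or cultures, so the p-values reflect only library-to-library spread, possibly technical.

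The source and cell type labels name peritoneal macrophages, whereas the titles name Th1 cells. Over 13 markers of CD4+ T cells the median level was 189 and 167 FPKM with IL-16, against 154 and 160 FPKM with PBS. The median over 16 macrophage markers was 0.0234 and 0.0262 FPKM in the IL-16 libraries, against 0.0485 and 0.0692 FPKM in the PBS libraries, and 4 of them (Fcgr1, C1qc, Timd4 and Marco) were listed at 0 throughout. Summed, the macrophage markers were 13.0 and 13.2 FPKM with IL-16, against 16.5 and 15.3 FPKM with PBS, and the highest single value was 11.5 FPKM for Icam2. Library totals were 388218 and 373924 FPKM with IL-16 and 385907 and 391153 FPKM with PBS, and the read depth behind them is unknown.

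Glutamine is the main nitrogen donor of proliferating lymphocytes and one of their chief carbon sources. Glutaminases release ammonia from it to leave glutamate, and glutamate enters the tricarboxylic acid (TCA) cycle as 2-oxoglutarate, either through glutamate dehydrogenase or through transaminases that pass the amino group on to alanine, aspartate or other amino acids. Glutamine synthetase runs the opposite way, and a further set of enzymes takes the amide nitrogen of glutamine to build asparagine, amino sugars and nucleotides. Activated T cells raise glutamine uptake and breakdown under the control of Myc, and asparagine synthetase belongs to the amino acid response driven by the transcription factor ATF4.

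With all 4 libraries, none of the 9 enzymes passed an adjusted p of 0.05 in limma, in either direction. Glud1, Gls2 and Oat had the lowest means with IL-16 relative to PBS, at 0.807, 0.771 and 0.789 times the PBS mean, and Got2 had the highest, at 1.15 times. Among all tested rows 0.160% were called higher and 0.0589% lower with IL-16, so 0 of 9 stands near that background. At an unadjusted p under 0.05 there was 1 enzyme higher (Got2) and 2 lower (Glud1 and Gls2), against 9.59% of all tested rows higher and 13.9% lower. Both IL-16 values lay below both PBS values for 6 enzymes (Gls2, Glud1, Got1, Asns, Gfpt1 and Oat), and this held for 34.8% of all tested rows. Both IL-16 values lay above both PBS values for 1 enzyme, Got2, and for 24.1% of all tested rows. The groups overlapped for the other 2, Glul and Gpt2. Because the 9 enzymes were chosen with earlier results of these data known, these shares are no test of the set.

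The median log2 fold change of the 9 enzymes, IL-16 over PBS on the log2(FPKM + 1) scale, was -0.10, beside -0.045 over all tested rows. Values below 0 were found for 6 of the 9 and for 57.8% of all tested rows. The largest change in size was 0.33 (Oat), a size that 19.9% of all tested rows reached. Among the 26 rows called across the table the smallest change in size was 0.705, so the differences seen in these enzymes were smaller than any that were called. Standard errors of the 9 changes ran from 0.073 to 0.14, and no 95% interval reached beyond 0.675 in size. In a bulk culture, fewer cells of a type and less RNA per cell cannot be told apart.

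The enzymes covered a wide range of levels. FPKM is scaled to transcript length, so these levels can be set side by side if the values, deposited without a unit, are FPKM. Over the 4 libraries Got2 averaged 83.1 FPKM and Glud1 80.3 FPKM, more than Asns with 34.7 FPKM and Got1 with 32.1 FPKM. Got2 and Glud1 thus stood above 94.0% and 93.6% of tested rows. Glul averaged 18.0 FPKM, Oat 17.7 FPKM and Gfpt1 14.1 FPKM. Gls2 and Gpt2 were lowest, at 4.40 and 4.04 FPKM, above 26.1% and 24.2% of tested rows. The ranges over the 4 libraries were apart at 3 steps: both Got2 and Glud1 above Asns, Got1 above Glul, and Gfpt1 above Gls2. Asns also exceeded Got1 in all 4 libraries, though their ranges overlapped. Got2 exceeded Glud1 in 2 libraries, those with IL-16, and Glul exceeded Oat in the same number. Summed over the 9 enzymes, the level was 284.9 and 273.6 FPKM with IL-16, against 292.8 and 302.6 FPKM with PBS. This was 0.0734% and 0.0732% of the library total with IL-16, against 0.0759% and 0.0774% with PBS.

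**Figure D1:**
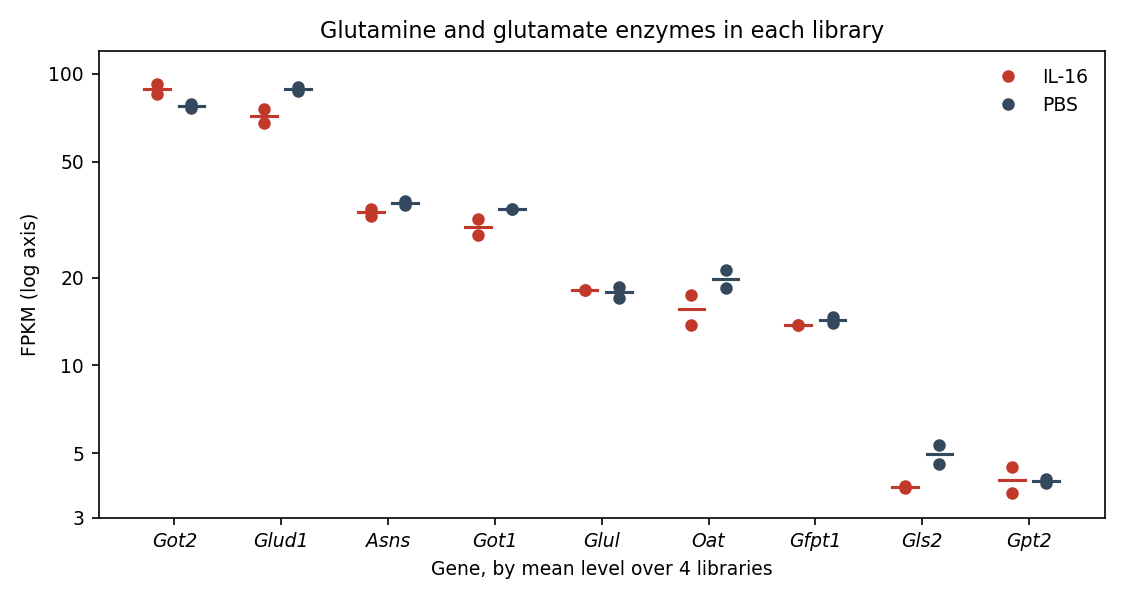
Level of each of the 9 enzymes in FPKM (log axis), with 1 point per library, IL-16 (red) left of PBS (blue-grey) and a bar at each group mean. Got2 and Glud1 stand highest, at 67.8 to 92.2 FPKM in single libraries, and exchange order between the groups, while Gls2 and Gpt2 stand lowest.

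Gls2 encodes the liver-type glutaminase, a mitochondrial enzyme that turns glutamine into glutamate. It had 3.81 and 3.86 FPKM in the IL-16 libraries, against 5.34 and 4.60 FPKM in the PBS libraries. Both IL-16 values were below both PBS values, and the IL-16 libraries lay closer to each other than the PBS libraries did. The group means were 3.83 ± 0.0374 FPKM with IL-16 and 4.97 ± 0.520 FPKM with PBS (SD, n = 2 each). The log2 fold change of -0.30 (95% interval -0.59 to -0.01) did not pass (limma adjusted p = 0.205). In all, 21.8% of tested rows had a p at least as small. On the log2(FPKM + 1) scale the change of so low a transcript is understated, and it was -0.36 with a pseudocount of 0.1 and -0.17 with a pseudocount of 5.

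Glud1 encodes glutamate dehydrogenase of the mitochondrial matrix, which interconverts glutamate and 2-oxoglutarate. It had 75.7 and 67.8 FPKM with IL-16, against 87.5 and 90.3 FPKM with PBS. The groups did not overlap, and IL-16 replicate 2 was the lowest library. Means were 71.7 ± 5.60 FPKM with IL-16 and 88.9 ± 2.01 FPKM with PBS (SD, n = 2 each). The log2 fold change was -0.31 with a 95% interval from -0.52 to -0.10, the smallest p of the 9 enzymes, and it did not pass over all rows (limma adjusted p = 0.135). In all, 8.83% of tested rows had a p at least as small. Relative to the PBS mean, IL-16 replicate 1 stood at -0.23 and replicate 2 at -0.39, while the PBS libraries differed by 0.046.

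Glul encodes glutamine synthetase, the cytosolic enzyme that makes glutamine from glutamate and ammonia. It had 18.2 and 18.1 FPKM with IL-16, against 17.0 and 18.5 FPKM with PBS. The IL-16 values lay between the PBS values. The log2 fold change was 0.031 with a 95% interval from -0.17 to 0.24, which corresponds to a fold of 0.886 to 1.18 (limma adjusted p = 0.843). Set against Gls2 in the same library, Glul stood at 4.79 and 4.69 times its level with IL-16 and at 3.19 and 4.02 times with PBS, in FPKM. The IL-16 ratios were both above the PBS ratios, and with 2 libraries a group the exact two-sided permutation test cannot go below p = 0.333, the value it gave. The groups overlapped for Glul and did not for Gls2.

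**Figure D2:**
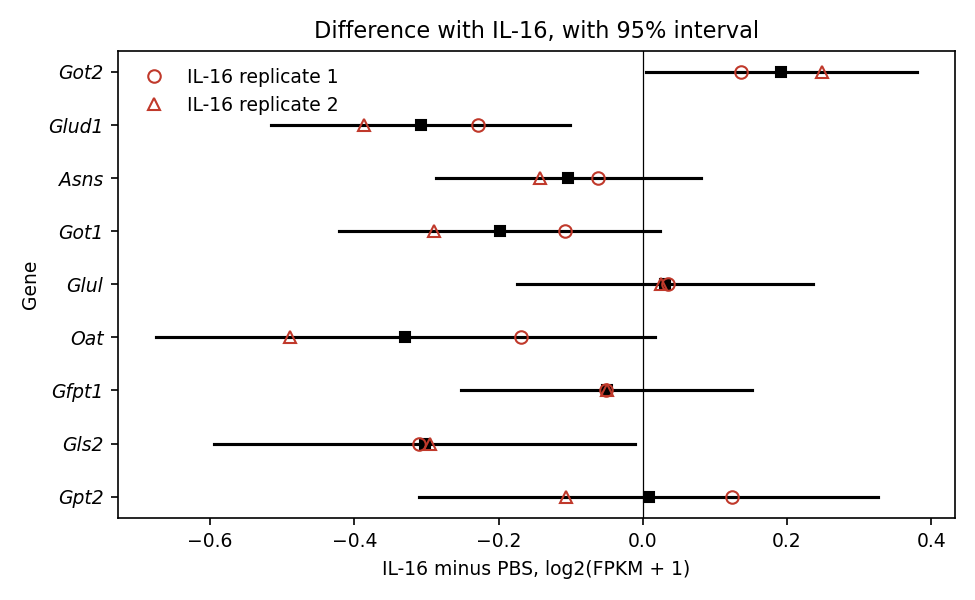
Difference between IL-16 and PBS in log2(FPKM + 1) for the 9 enzymes: black squares are the limma estimate, bars its 95% interval, and open red symbols the 2 IL-16 libraries relative to the PBS mean. The interval lies below 0 for Glud1 and Gls2 and above 0 for Got2, and it holds 0 for the other 6 enzymes.

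Got1 and Got2 are paralogues that catalyse the same transfer of an amino group between glutamate and aspartate. GOT1 acts in the cytosol and GOT2 in the mitochondrion, and together they carry the malate-aspartate shuttle that brings reducing equivalents into the mitochondrion. Got1 had 31.8 and 28.0 FPKM with IL-16, against 34.5 and 34.3 FPKM with PBS. Got2 had 85.2 and 92.2 FPKM with IL-16, against 76.5 and 78.5 FPKM with PBS. Thus both IL-16 values were below PBS for the cytosolic enzyme and above PBS for the mitochondrial one. Neither passed in limma: the log2 fold change was -0.20 for Got1 (95% interval -0.42 to 0.024, adjusted p = 0.246) and 0.19 for Got2 (95% interval 0.0043 to 0.38, adjusted p = 0.207). Without IL-16 replicate 2 the change of Got1 was -0.11 and that of Got2 0.14.

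The ratio of Got2 to Got1 was taken within each library, in FPKM, to compare the pair directly. It was 2.68 and 3.30 with IL-16, against 2.22 and 2.29 with PBS, with means of 2.99 ± 0.439 and 2.25 ± 0.0508 (SD, n = 2 each). The 2 IL-16 ratios were above both PBS ratios, a difference of 0.399 in the log2 ratio. This separation follows from the values above, as Got2 was higher and Got1 lower in both IL-16 libraries. The ratio and its test therefore add no separate evidence. The exact two-sided permutation test gave p = 0.333, the smallest that 2 libraries against 2 can give. IL-16 replicate 2 had the highest ratio and also the lowest Got1 and the highest Got2 level. A ratio shows unequal change of the 2 transcripts and does not say which of them moved. Got1 stood at 0.421 and 0.413 of the Glud1 level with IL-16 and at 0.394 and 0.380 of it with PBS (exact two-sided permutation p = 0.333).

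**Figure D3:**
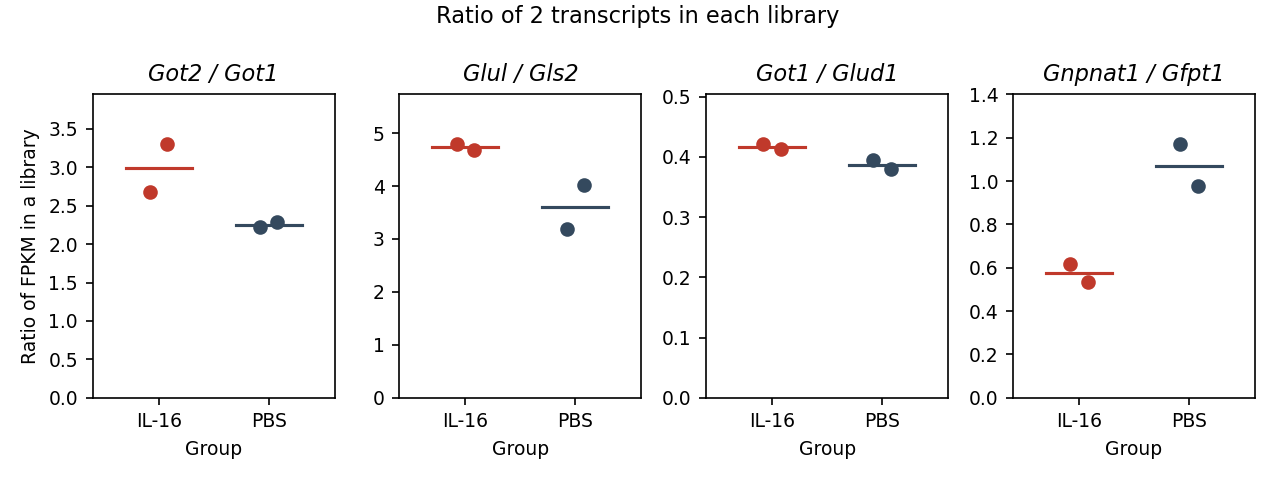
Ratio of 2 transcripts in each library, from their FPKM, with IL-16 (red) left of PBS (blue-grey), 1 point per library and a bar at the group mean; every axis starts at 0. Got2 to Got1, Glul to Gls2 and Got1 to Glud1 are higher in both IL-16 libraries than in both PBS libraries, and Gnpnat1 to Gfpt1 is lower. For Got2 to Got1 this follows from the opposite directions of the 2 transcripts.

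Gpt2 encodes the mitochondrial alanine aminotransferase, which passes the amino group of glutamate to pyruvate. It had 4.47 and 3.66 FPKM with IL-16, against 4.08 and 3.96 FPKM with PBS. The IL-16 libraries fell on either side of the PBS libraries. The log2 fold change was 0.008 with a 95% interval from -0.31 to 0.33 (limma adjusted p = 0.977). Its sign depended on the libraries used, being 0.12 without IL-16 replicate 2, -0.11 without IL-16 replicate 1 and -0.0088 without PBS replicate 2. The cytosolic paralogue Gpt had 2.81 and 1.53 FPKM with IL-16, against 2.67 and 3.41 FPKM with PBS.

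Oat encodes ornithine aminotransferase, a mitochondrial enzyme that links ornithine with glutamate semialdehyde and so with proline and glutamate. It had 17.4 and 13.8 FPKM with IL-16, against 18.4 and 21.2 FPKM with PBS. The groups did not overlap, but IL-16 replicate 1 was close to PBS replicate 1. Means were 15.6 ± 2.59 FPKM with IL-16 and 19.8 ± 1.97 FPKM with PBS (SD, n = 2 each). The log2 fold change of -0.33 had the widest interval of the 9 enzymes, from -0.675 to 0.016 (limma adjusted p = 0.226). Leaving out IL-16 replicate 2 gave -0.17, and leaving out replicate 1 of that group gave -0.49.

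Asns encodes asparagine synthetase, which uses the amide nitrogen of glutamine to make asparagine from aspartate. It had 34.4 and 32.5 FPKM with IL-16, against 35.5 and 36.6 FPKM with PBS. The groups did not overlap, yet the gap between them was about as small as the gap within the PBS pair. The log2 fold change was -0.10 with a 95% interval from -0.29 to 0.081 (limma adjusted p = 0.422), and -0.063 without IL-16 replicate 2. Gfpt1 encodes the first enzyme of the hexosamine pathway, which moves the amide nitrogen of glutamine onto fructose 6-phosphate. It had 13.8 FPKM in both IL-16 libraries, against 14.0 and 14.7 FPKM in the PBS libraries. The IL-16 values were just below the lower PBS value, and the log2 fold change was -0.050 with a 95% interval from -0.25 to 0.15 (limma adjusted p = 0.726).

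Leaving out 1 library changed calls in 1 case. Without IL-16 replicate 1, a fit whose spread rests on the PBS pair because the lone IL-16 library is assumed to vary like it, Glud1, Got1 and Oat passed as lower and Got2 as higher. Their log2 fold changes were then -0.39, -0.29, -0.49 and 0.25, with limma adjusted p of 0.0203, 0.0445, 0.0488 and 0.0447. In that same fit 10.9% of all tested rows were called lower and 6.44% higher. The 4 calls are 3 lower and 1 higher of 9 enzymes, read against those shares. Replicate 2 of the IL-16 group lay farther from the PBS mean than replicate 1 for 5 of the 9 enzymes and for 67.2% of all tested rows.

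Promoter sequences of 300 bases, from 250 before to 50 after the start of the gene, were found in RefSeq (GRCm38.p6) for 8 of the 9 enzymes, Gls2 being the other. They were searched on both strands for the core of the amino acid response element, TGATGNAAN, through which ATF4 and C/EBP proteins act on genes such as Asns, and for the E-box CACGTG, a site bound by Myc. Matches to the 2 motifs can overlap at their ends, and 66 promoters in all held both. Matches to TGATGNAAN were found in 2 of the 8 promoters, Asns and Got1, and in 3.95% of all 32851 promoters of the same length. None of the 8 held CACGTG, which 7.15% of all promoters held. The 2 promoters with a match are shown 5′ to 3′ on the strand of the gene, with the match in capitals. The coordinates are those of GRCm38.p6, not of the build named for the expression values.

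Asns, chr6:7693160-7693459, minus strand, match on the strand of the gene from position -23 relative to the start: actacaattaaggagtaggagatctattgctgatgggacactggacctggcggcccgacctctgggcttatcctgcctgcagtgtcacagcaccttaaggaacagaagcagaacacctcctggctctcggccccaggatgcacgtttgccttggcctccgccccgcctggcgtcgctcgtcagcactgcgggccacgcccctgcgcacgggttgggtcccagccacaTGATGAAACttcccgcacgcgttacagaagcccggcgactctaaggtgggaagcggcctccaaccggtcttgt
Got1, chr19:43524556-43524855, minus strand, match on the opposite strand from position -103 relative to the start: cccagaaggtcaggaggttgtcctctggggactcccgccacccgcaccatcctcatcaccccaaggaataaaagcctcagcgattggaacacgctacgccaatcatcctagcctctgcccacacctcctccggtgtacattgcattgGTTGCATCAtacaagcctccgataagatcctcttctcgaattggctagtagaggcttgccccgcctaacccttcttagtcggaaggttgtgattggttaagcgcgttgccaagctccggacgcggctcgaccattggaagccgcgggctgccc

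These are the 2 enzymes with log2 fold changes of -0.10 (Asns) and -0.20 (Got1), neither past the threshold. A match is a description of the letters in this window and not evidence of binding. The promoters of the 8 enzymes were richer in G and C than most: 57.3% for Got1, the lowest, to 81.0% for Glud1, the highest, where the median of all promoters was 52.7%. The Glud1 promoter held 51 CpG dinucleotides and was richer in G and C than 99.3% of all promoters, and the median promoter held 7.

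Other genes of glutamine and glutamate metabolism were followed in 10 lists with 122 symbols, of which 120 were in the table and 100 were tested. Of these 100, none was called higher and 1 was called lower, the regulator Cebpb. Their median log2 fold change was -0.15, beside -0.045 over all tested rows, and 73 were below 0, beside 57.8% of all tested rows. Both IL-16 values lay below both PBS values for 55 and above them for 18, beside 34.8% and 24.1% of all tested rows. The lists were chosen with earlier results of these data known. These shares are a description, and whether the lists differ from all rows was not tested.

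Among 12 tested genes of other glutamine and glutamate enzymes, none passed, 10 were below 0 and the median log2 fold change was -0.24. Bcat2, the mitochondrial branched-chain aminotransferase, also makes glutamate. It had 23.8 and 20.8 FPKM with IL-16, against 27.9 and 29.8 FPKM with PBS (log2 fold change -0.36, limma adjusted p = 0.135). Of the same list Tat and Aadat were listed at 0 in all libraries. None of 10 tested users of the glutamine amide nitrogen passed, with a median of -0.19. Qrsl1, a subunit of the mitochondrial amidotransferase that makes glutaminyl-tRNA, had 2.51 and 2.05 FPKM with IL-16, against 3.25 and 4.04 FPKM with PBS (adjusted p = 0.152). Gmps, GMP synthetase, had 13.5 and 12.3 FPKM with IL-16, against 14.9 and 15.6 FPKM with PBS (adjusted p = 0.209).

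The 12 tested genes of the hexosamine pathway beside Gfpt1 had a median of -0.16, and none passed. Gnpnat1, which acetylates the glucosamine 6-phosphate that GFPT1 makes, had 8.49 and 7.37 FPKM with IL-16, against 16.4 and 14.3 FPKM with PBS. Its groups were well apart, at a log2 fold change of -0.87 (95% interval -1.16 to -0.59), just short of the threshold (limma adjusted p = 0.0671, with 0.0159 without IL-16 replicate 1, 0.0347 with the copy rows of each symbol summed and 0.272 without PBS replicate 1). Set against Gfpt1 in the same library, Gnpnat1 stood at 0.616 and 0.534 of its level with IL-16 and at 1.17 and 0.976 of it with PBS, in FPKM (exact two-sided permutation p = 0.333, the smallest possible). Oga, which removes the sugar that this pathway ultimately provides from proteins, had 46.4 and 43.1 FPKM with IL-16, against 57.5 and 56.6 FPKM with PBS (adjusted p = 0.107).

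Around Oat, none of 11 tested proline, ornithine and polyamine genes passed, and they were split, 7 below 0 and 4 above. Azin1, the antizyme inhibitor that protects ornithine decarboxylase, had 16.4 and 15.2 FPKM with IL-16, against 21.1 and 20.3 FPKM with PBS (log2 fold change -0.37, limma adjusted p = 0.110). Srm, spermidine synthase, had 18.9 and 20.3 FPKM with IL-16, against 14.6 and 15.9 FPKM with PBS (log2 fold change 0.34, adjusted p = 0.129). The table holds a second row for Srm, and with its copy rows summed the log2 fold change was 0.052 (adjusted p = 0.695). Of 5 shuttle partners of the Got enzymes none passed, with 4 below 0. Mdh1, cytosolic malate dehydrogenase, had 49.0 and 39.3 FPKM with IL-16, against 50.1 and 53.5 FPKM with PBS (log2 fold change -0.23, adjusted p = 0.295, with -0.079 once IL-16 replicate 2 was left out). Slc25a11, the oxoglutarate carrier, had 31.0 and 20.4 FPKM with IL-16, against 37.5 and 30.0 FPKM with PBS, with groups that overlapped (log2 fold change -0.40, adjusted p = 0.311). It too has a second row, and summed the log2 fold change was -0.086 (adjusted p = 0.485). On the first row alone, leaving out IL-16 replicate 1 gave -0.69, leaving out replicate 2 of that group gave -0.11, and leaving out PBS replicate 1 gave -0.25.

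Of 12 tested glutamine and glutamate carriers none passed, and 9 were below 0. Slc25a15, the mitochondrial ornithine carrier, had 1.80 and 1.77 FPKM with IL-16, against 3.39 and 3.09 FPKM with PBS (log2 fold change -0.61, limma adjusted p = 0.105). Slc38a3, a glutamine transporter, had 1.35 and 1.14 FPKM with IL-16, against 0.126 and 0.257 FPKM with PBS (log2 fold change 0.91, adjusted p = 0.101). It met the condition on low values only through its IL-16 libraries, so it had to be higher there to be tested. None passed of 4 tested genes that charge tRNA with glutamine, glutamate, asparagine or aspartate, of 6 glutathione genes or of 11 TCA cycle genes around 2-oxoglutarate. Their medians were -0.080, -0.18 and -0.16. Within these lists Dars (aspartyl-tRNA synthetase) had 61.4 and 58.9 FPKM with IL-16, against 70.8 and 66.0 FPKM with PBS, and Qars (glutaminyl-tRNA synthetase) 79.7 and 73.1 FPKM with IL-16, against 67.7 FPKM in both PBS libraries. Gsr, glutathione reductase, had 27.7 and 23.3 FPKM with IL-16, against 31.3 and 29.8 FPKM with PBS (log2 fold change -0.26, and -0.14 without IL-16 replicate 2). Gpx1, a glutathione peroxidase, had 83.1 and 85.4 FPKM with IL-16, against 75.5 and 77.4 FPKM with PBS. Dld, the shared dehydrogenase subunit of the 2-oxoglutarate and pyruvate complexes, had 19.8 and 17.3 FPKM with IL-16, against 24.0 and 21.0 FPKM with PBS. Suclg2, a succinate-CoA ligase subunit, had 5.07 and 4.36 FPKM with IL-16, against 5.55 and 7.05 FPKM with PBS.

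Among 17 regulators, 1 passed and 16 did not. Cebpb, a C/EBP transcription factor of the stress and amino acid responses, fell to 25.0 and 21.7 FPKM with IL-16, against 48.1 and 48.6 FPKM with PBS (log2 fold change -1.02, SE 0.09, limma adjusted p = 0.0405). This call was lost without PBS replicate 1 (adjusted p = 0.173), without PBS replicate 2 (0.150), without the condition on low values (0.175) and without the mean-variance trend (0.0773). Myc and Atf4 were named outside the rule for named genes, after their values had been seen, because of the known roles given above. Myc had 79.5 and 114 FPKM with IL-16, against 63.9 and 64.8 FPKM with PBS, so both IL-16 values were above PBS but unequal (log2 fold change 0.56, limma adjusted p = 0.159). It was not alone: Mxd1 and Max of the same list, also named after their values had been seen, were higher too. Mxd1 had 64.6 and 71.9 FPKM with IL-16, against 44.7 and 46.6 FPKM with PBS (log2 fold change 0.57, limma adjusted p = 0.0756). The log2 fold change of Max was 0.37 (limma adjusted p = 0.123). Of the 17 regulators, 11 were below 0. Atf4 had 127 and 119 FPKM with IL-16, against 136 and 138 FPKM with PBS (log2 fold change -0.15, adjusted p = 0.271).

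Without IL-16 replicate 1, genes named from these lists that passed as lower, besides Cebpb, included Bcat2, Gnpnat1, Oga, Azin1, Gsr, Mdh1 and Slc25a11, with limma adjusted p between 0.0159 and 0.0425 for those given. For Slc25a11 this is the first row alone. The rule named these genes for a small p within their lists with all libraries in, and this fit reuses most of those libraries. Their passing was favoured by that choice, so it cannot be compared with the share of all tested rows called lower.

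**Figure D4:**
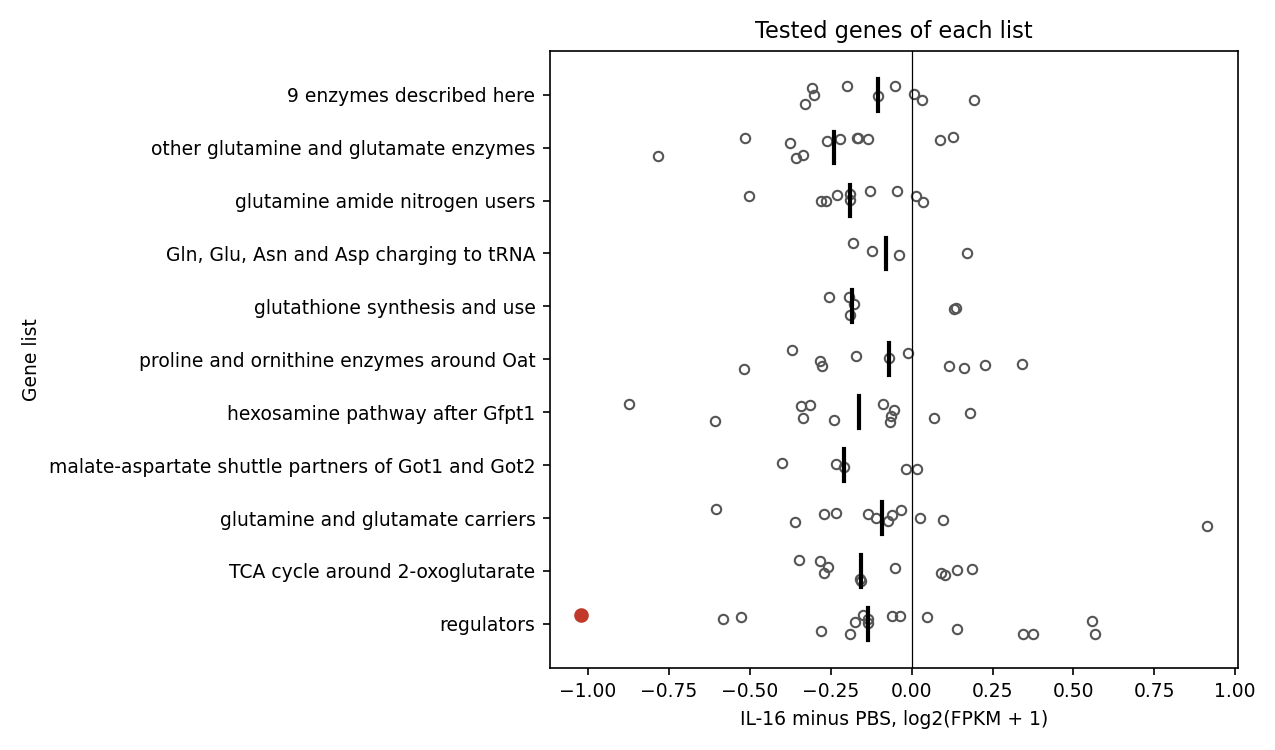
Difference between IL-16 and PBS in log2(FPKM + 1) for every tested gene of the 9 enzymes and of the 10 related lists, 1 point per gene with a black bar at each list's median; vertical scatter within a list has no meaning. The filled red point is Cebpb at -1.02, the single gene here past an adjusted p of 0.05, and the medians of all lists lie between -0.24 and -0.070.

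For each enzyme, the plainly named gene with the most similar pattern was found by the root mean square distance between log2(FPKM + 1) values centred over the 4 libraries. Gfpt1 was closest to Uap1 (distance 0.0026), Got1 to Mtmr14 (0.0035), Asns to M6pr (0.0037), Glul to Gna11 (0.0062), Got2 to Prdm2 (0.0065), Glud1 to Pfkfb2 (0.0065), Gpt2 to Chtf8 (0.0071), Gls2 to Cd244a (0.011) and Oat to Amer1 (0.018). With 4 libraries such matches are common: between 86 genes (for Oat) and 1006 genes (for Asns) of 10214 lay within 0.05 of an enzyme. Among the enzymes themselves the closest pair was Asns and Gfpt1, at 0.040. Uap1 belongs to the hexosamine pathway, as Gfpt1 does, but 949 of the 10214 genes lay within 0.05 of Gfpt1.

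Reads can be shared with other genes in 2 ways. In GENCODE vM21, Gls2 overlaps Spryd4 on the opposite strand, and the labels do not say whether counting used strand. Spryd4 had 2.14 and 2.07 FPKM with IL-16, against 3.63 and 2.28 FPKM with PBS, below Gls2 in each library. Glul overlaps Teddm2 on the opposite strand, which did not exceed 0.0868 FPKM, and Oat overlaps Fgfr2 on its own strand, which did not exceed 0.0286 FPKM. RefSeq names the pseudogenes Got2-ps1 and Glud-ps, for which no value is given here, and reads of Got2 and Glud1 could be split with such copies, so their levels are uncertain to that extent.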

How the data were processed

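Sample titles gave group and replicate, and columns were assigned to libraries by their names. The deposited table gives 1 value per gene and library with no unit in its header. The values were read as FPKM, computed by the authors before deposition, because they are not whole and the column totals differ. The submitters' processing notes name fastp, HISAT2, featureCounts and GRCm39, without versions or roles. Ratios of low values between libraries showed no common step (at most 1.49% fell in any window of 0.5%), so whole reads were not recovered. Depth is unknown and no counting error is given.

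Rows with at least 1 FPKM in at least 2 libraries were fitted with limma 3.58.1 (R 4.3.3), using log2(FPKM + 1) values, a mean-variance trend and a model of treatment only. Tests were two-sided, with Benjamini-Hochberg adjustment over all 11882 rows and a threshold of 0.05. Fold changes on this scale understate low genes. Means, SDs and ratios are of FPKM.

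The 9 enzymes, the 10 related lists and the markers were chosen with earlier results of these data known. Named from each list were the genes past the threshold or, with none, the 2 with the smallest p. Gene names of all 9 enzymes matched RefSeq. Some items that this rule names are not reported here.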

Additional observations from a re-analysis of the deposited data

How the results depend on the processing

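None of the 9 enzymes was called under 14 of 15 alternatives. The exception was the fit without IL-16 replicate 1. With each library left out in turn, the enzymes' median log2 fold change stayed below 0. It ran from -0.14 (without IL-16 replicate 1) to -0.063 (without IL-16 replicate 2), beside -0.10 with all 4 libraries. Among values of single enzymes under these alternatives, 126 kept direction and side of the threshold, 4 became calls and 3 reversed. Glul ran from -0.026 (without PBS replicate 1) to 0.087 and Gpt2 from -0.11 (without IL-16 replicate 1) to 0.12 when 1 library was left out, with -0.0088 for Gpt2 without PBS replicate 2. At the stricter condition of 5 FPKM, Gls2 and Gpt2 were not tested.

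Over all rows, 19 were called higher and 7 lower. The counts were 40 and 13 with median-of-ratios scaling, 32 and 12 with equal column totals, and 73 and 53 with copies summed. They were 0 and 0 without the condition on low values (1308 and 1760 at an unadjusted p under 0.05) and 0 and 0 in limma without the trend (1006 and 1614). With a pseudocount of 5 there were 13 lower, with library weights 14 lower. Leaving out 1 library gave 6 to 765 higher and 2 to 1300 lower. The causes were not tested. With the replicate block 20 were higher and 11 lower, and no enzyme was called. Same-numbered libraries did not deviate together (r = 0.0067 across genes). That correlation cannot show whether they shared a mouse or a culture, and the labels do not say, so pairing remains unknown.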
